A study of Mus musculus with 6 samples.

Results

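The clustered histone genes were taken from a comparison of mouse embryonic fibroblasts kept in ordinary and in low oxygen. They are the measurements of the deposited gene table whose single gene name has the form Hist1h to Hist4h followed by a class, as in Hist1h4i. The rule matched 66 rows. Hist2h2bb was repeated under 2 identifiers and was counted once, which left 65 members among 51482 measurements. By class they comprise 5 genes of the linker histone H1, 18 of H2A, 18 of H2B, 11 of H3 and 13 of H4. Of the 65, 62 are annotated as protein-coding and 3 (Hist3h2bb-ps, Hist1h2aj and Hist1h2al) as pseudogenes.

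The cells of all 6 samples were wild-type fibroblasts immortalised with SV40, whose large T antigen keeps cells dividing. Normoxia was 21% oxygen and hypoxia 0.5% oxygen, each for 16 h, with 3 samples per group that the series design calls biological replicates. RNA was selected by its poly-A tail and sequenced as stranded libraries, per the labels' protocols, in a study on mTORC1, lipid signalling and the mitochondrial protease YME1L. The deposited values are 1 FPKM per gene and group (fragments scaled to transcript length and library size), into which the authors combined their 3 samples. They carry no SD, values of single samples were not analysed here, and the depth of the libraries is unknown. The words rose and fell are kept for genes with a Cuffdiff q-value below 0.05 in the authors' deposited table, and other differences are given as values.

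Most histone protein is made from these clustered, mostly intronless genes during S phase, when new DNA has to be packed into nucleosomes. Their mRNAs typically end in a short conserved stem-loop and not in a poly-A tail. The stem-loop binding protein SLBP and the U7 small nuclear ribonucleoprotein direct the cut that follows it. Poly-A selection therefore captures these mRNAs poorly, and what it captures includes the polyadenylated forms that some clustered genes also make from a downstream site. Many histone variants encoded outside the clusters, H2afz and H3f3b among them, have ordinary polyadenylated mRNAs and are made throughout the cell cycle, but not all do so.

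The stem-loop was visible in the annotation of most members. On the forward strand of the GENCODE M21 transcripts of GRCm38, a motif of 16 bases (stem GGNNCT, loop TNTN, stem AGNNCC) was found in 41 of 65 members (63.1%), against 201 of 55450 annotated genes (0.362%). An AATAAA or ATTAAA hexamer, the usual polyadenylation signal, lay in the last 50 bases of an annotated transcript in 14 members (21.5%), against 43.9% of all genes. The stretches below belong to 4 of the members that rose in hypoxia and show both elements where both are present, with the stem-loop and the hexamer in capitals.
Hist1h4i stem-loop: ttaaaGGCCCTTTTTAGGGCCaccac
Hist1h4i hexamer: ctgtttacATTAAAagtattctatgctaa
Hist1h1c stem-loop: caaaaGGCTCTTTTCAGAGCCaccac
Hist1h1c hexamer: atgcttctAATAAAaagcgtttagttttca
Hist3h2ba stem-loop: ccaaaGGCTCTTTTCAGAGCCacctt
Hist3h2ba hexamer: atggtattAATAAAtttggttcaattttgg
Hist2h3c2 stem-loop: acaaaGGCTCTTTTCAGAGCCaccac
In these models the transcript ran 330 bases past the stem-loop in Hist1h4i, 840 bases in Hist1h1c, 169 bases in Hist3h2ba and 377 bases in Hist2h3c2. The model of Hist2h3c2 had no hexamer near its end.

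The letters of the stem differed by class. All 29 stem-loops of H1, H2A, H2B and H3 members opened with GGCTC. Of the 12 in H4 members, 10 opened with GGCCC and 2, in Hist1h4j and Hist1h4b, with GGTCC. The form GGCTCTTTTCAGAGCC was shared by 21 members of the 4 other classes, and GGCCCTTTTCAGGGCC by 7 H4 members, Hist1h4n among them:
Hist1h4n stem-loop: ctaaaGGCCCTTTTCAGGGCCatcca
Hist1h4j stem-loop: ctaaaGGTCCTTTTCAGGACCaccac

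The level of nearly all clustered histone genes was low in these libraries. Of the 65 members, 58 had a value above 0 in at least 1 group, 7 were listed at 0 in both, and 13 reached 1 FPKM in either group. The authors' deposited table tested 36 of them. Those 36 had a median of 0.457 FPKM in normoxia and 0.643 in hypoxia, against 13.9 FPKM in both groups for the 12043 tested protein-coding measurements. The mean of both groups reached 1 FPKM in 30.6% of the tested members and in 90.2% of the tested protein-coding measurements. The highest value among the 29 untested members was 0.322 FPKM, that of Hist1h3i in hypoxia. Hist1h2ba and Hist1h2aa, known as testis-specific forms of H2B and H2A, were listed at 0 in both groups, and Hist1h1t, the testis H1, had 0.0700 FPKM in normoxia and was listed at 0 in hypoxia.

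Hist1h2bc, Hist1h4i and Hist1h1c, genes of H2B, H4 and H1, held most of the signal. Together they summed to 44.9 FPKM in normoxia and 86.4 in hypoxia, 63.8% and 72.8% of the sum over all 65 members. The sum over all members was 70.4 FPKM in normoxia and 118.7 in hypoxia, or 1.69 times as high. Without these 3 genes it was 25.5 and 32.3 FPKM, a ratio of 1.27. The summed FPKM of the whole series was also higher in hypoxia, 639357 against 547351 in normoxia. Ratios of sums here and by class below are to be read beside that difference, above all those little over 1. These sums have no replicate check.

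In the authors' deposited table, 7 of the 36 tested members rose in hypoxia, 2 fell and 27 were not called. The genes that rose were Hist1h2bc, Hist1h4i, Hist1h1c, Hist3h2ba, Hist1h4k, Hist1h4n and Hist2h3c2, and those that fell were Hist2h2be and Hist1h2bh. The share of tested members called was 25.0%, below the 57.9% called among all 14575 tested measurements, of which 28.9% rose and 29% fell. Level went with this share. Where the mean reached 1 FPKM, 11 members were tested, 6 rose and 1 fell. That is 63.6% called, against 62.9% of all 12127 such measurements (32.1% up and 30.9% down). Of the 25 below 1 FPKM, 1 rose (Hist1h4n) and 1 fell (Hist1h2bh), or 8.0%, against 33.3% of 2448 such measurements (13.5% up and 19.8% down). At q below 0.01, 5 members rose and 2 fell, beside 48.7% of all measurements called. Changes of at least 2-fold were called in 4 that rose and 1 that fell, beside 18.9% of all measurements. Whatever the call, 22 tested members had the higher value in hypoxia and 14 in normoxia. Their median difference, hypoxia over normoxia, was 0.083 on the log2(FPKM + 1) scale, against -0.0094 over all tested measurements. That scale understates the change of genes this low, and on the plain log2 scale the members' median was 0.25. The plain-scale median over all tested measurements is not given here, so 0.25 is not to be set against -0.0094.

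**Figure D1:**
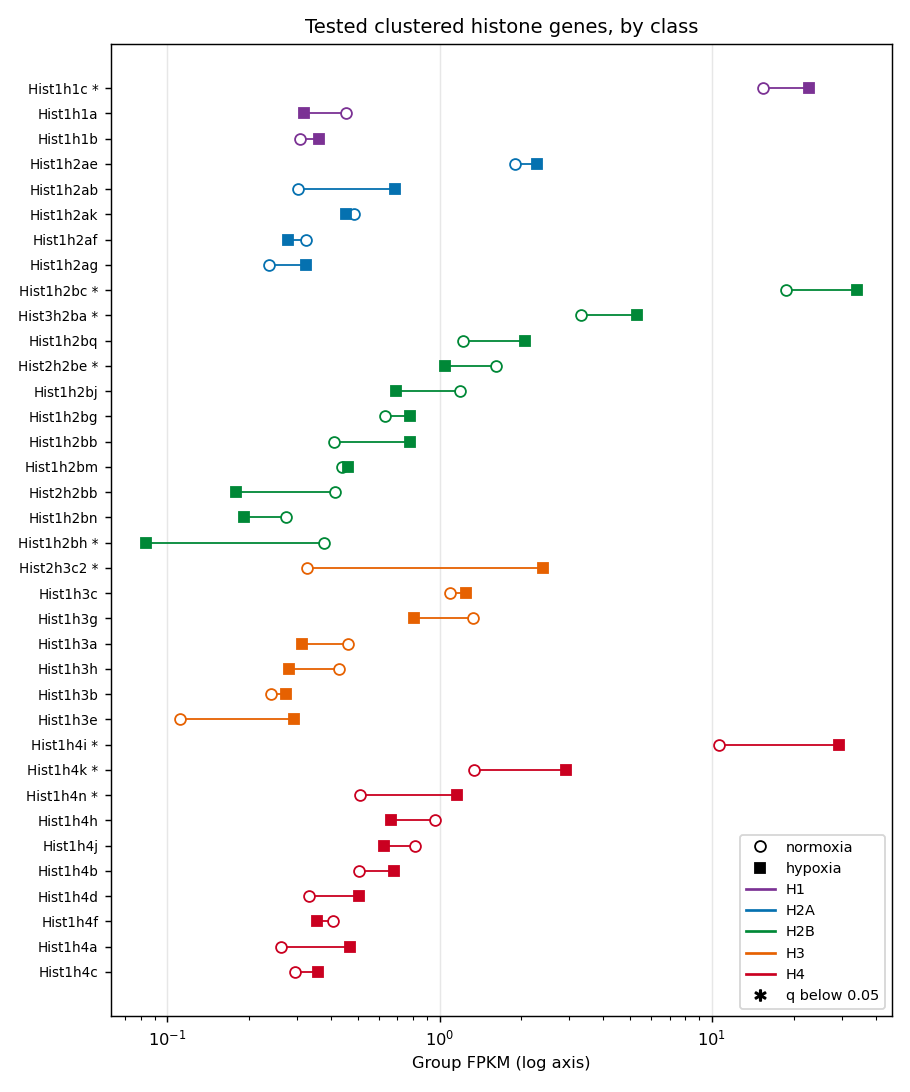
Group FPKM on a log axis of the 36 tested clustered histone genes, ordered by class and level, with normoxia as open circles, hypoxia as filled squares and a line joining the 2 values of a gene. Colours are the classes, asterisks mark a deposited q below 0.05, and Hist1h2bc, Hist1h4i and Hist1h1c stand above 10 FPKM in both groups while most other genes lie under 1.

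H1 binds the linker DNA between nucleosomes. Its signal was almost all Hist1h1c, on the plus strand at chr13:23738808-23740367 of GRCm38. Hist1h1c had 15.4 FPKM in normoxia and 22.9 in hypoxia. It rose 1.48-fold (q = 0.000139 in the authors' deposited table), the smallest q in that table and shared by 5148 measurements. It made up 94.7% of the summed H1 signal in normoxia and 96.9% in hypoxia. Hist1h1a had 0.453 and 0.317 FPKM (q = 0.321), and Hist1h1b had 0.308 and 0.361 FPKM (q = 0.711). The class sum was 16.3 FPKM in normoxia and 23.6 in hypoxia, or 1.45 times as high, and without Hist1h1c that ratio was 0.843.

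H2A, which pairs with H2B in the nucleosome core, was the class without a call. None of its 5 tested members passed the deposited threshold. All but Hist1h2ae had a mean under 1 FPKM, where 8.0% of tested members of all classes were called. Of all measurements under that level, 33.3% were called. The absence of calls is therefore not read as a trait of H2A. Its highest member, Hist1h2ae, had 1.89 FPKM in normoxia and 2.28 in hypoxia (q = 0.293). Hist1h2ab had 0.302 and 0.687 FPKM, the widest gap of the 5, with a q of 0.0945. All 5 overlap an annotated gene on the opposite strand (Hist1h2ae Gm44394, Hist1h2ab Gm44484, Hist1h2ak Gm44454, Hist1h2af Gm44297 and Hist1h2ag Gm44486), as do Hist1h4b and Hist2h2bb among the tested members of other classes. Whether counting used strand is not stated, so reads of such pairs may be mixed. Hist1h2ak had 0.484 and 0.452 FPKM (q = 0.918), Hist1h2af 0.323 and 0.279 FPKM (q = 0.888), and Hist1h2ag 0.237 and 0.324 FPKM (q = 0.659). Thus 3 of the 5 were higher in hypoxia and 2 lower. The other 13 H2A members were not tested, and 6 of them were listed at 0 in both groups. The class sum was 4.03 FPKM in normoxia and 4.70 in hypoxia, or 1.16 times as high.

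H2B was the only class with calls in both directions, 2 up and 2 down among 11 tested members. That is 36.4% called, beside 57.9% of all tested measurements. Hist1h2bc, at chr13:23684199-23692908 on the plus strand, had 18.8 FPKM in normoxia and 34.2 in hypoxia, the highest values of any member. It rose 1.81-fold (q = 0.000139 in the authors' deposited table). Its annotated model differs from the usual intronless histone gene. It has 2 exons, 1156 bases of transcript and no stem-loop motif. Hist3h2ba, a single-exon gene at chr11:58948920-58949533 on the plus strand, had 3.30 FPKM in normoxia and 5.31 in hypoxia. It rose 1.61-fold (q = 0.000875).

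Hist2h2be and Hist1h2bh went the other way. Hist2h2be, at chr3:96221119-96223738 on the plus strand, had 1.62 FPKM in normoxia and 1.05 in hypoxia and fell 1.54-fold (q = 0.000139 in the authors' deposited table). Its 2620-base model holds no stem-loop motif and ends near a hexamer, shown here because this gene fell:
Hist2h2be hexamer: ttattattAATAAAgttaccgattagtttc
Hist1h2bh, at chr13:23541714-23543392 on the minus strand, had 0.377 and 0.0838 FPKM and fell 4.50-fold (q = 0.00511), at a level far under 1 FPKM in both groups.

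The other 7 tested H2B genes were not called. Hist1h2bq had 1.22 FPKM in normoxia and 2.06 in hypoxia (q = 0.0639, the authors' deposited table). Hist1h2bj had 1.19 and 0.693 FPKM (q = 0.0854), and Hist1h2bb 0.408 and 0.780 FPKM (q = 0.0985). These 3 lay nearest the threshold and did not share a direction. Hist1h2bg had 0.632 and 0.781 FPKM (q = 0.489), and Hist1h2bm 0.437 and 0.462 FPKM (q = 0.912). Hist1h2bn had 0.272 and 0.191 FPKM (q = 0.681), and Hist2h2bb 0.413 and 0.178 FPKM (q = 0.201). The H2B sum was 29.3 FPKM in normoxia and 46.5 in hypoxia, or 1.59 times as high, and without Hist1h2bc the ratio was 1.18.

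H3, with H4 the inner part of the nucleosome core, had 1 call among 7 tested members. That is 14.3% called, beside the same 57.9% of all tested measurements. Hist2h3c2, on the minus strand at chr3:96238108-96239127, had 0.327 FPKM in normoxia and 2.39 in hypoxia. It rose 7.32-fold (q = 0.000139 in the authors' deposited table), the widest ratio among the 9 called members, and went from 7.13% to 36.9% of the H3 sum. Hist1h3g had 1.33 and 0.803 FPKM (q = 0.0580), the opposite direction. Hist1h3c had 1.09 and 1.25 FPKM (q = 0.577), and Hist1h3a 0.462 and 0.313 FPKM (q = 0.410). Hist1h3h had 0.426 and 0.280 FPKM (q = 0.558), Hist1h3b 0.240 and 0.272 FPKM (q = 0.817), and Hist1h3e 0.112 and 0.291 FPKM (q = 0.154). The H3 sum was 4.59 FPKM in normoxia and 6.48 in hypoxia, or 1.41 times as high, and without Hist2h3c2 it was 0.958.

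H4 had the widest class difference. Its sum was 16.2 FPKM in normoxia and 37.4 in hypoxia, or 2.30 times as high, and 1.45 without Hist1h4i. Of 10 tested members 3 rose and none fell. Hist1h4i, at chr13:22040636-22041362 on the minus strand, had 10.7 FPKM in normoxia and 29.3 in hypoxia and rose 2.75-fold (q = 0.000139 in the authors' deposited table). It made up 65.7% of the H4 sum in normoxia and 78.5% in hypoxia. Hist1h4k, at chr13:21750194-21750505 on the minus strand, had 1.34 and 2.92 FPKM and rose 2.18-fold (q = 0.0294). Hist1h4n, at chr13:21831767-21832196 on the minus strand, had 0.511 and 1.16 FPKM and rose 2.28-fold (q = 0.0295). The last 2 calls lay near the threshold. In both genes over 50% of the transcript's 50-base windows occur in other genes, as given below, so their values are uncertain.

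The 7 tested H4 genes that were not called had small values in both groups. Hist1h4h had 0.966 FPKM in normoxia and 0.663 in hypoxia (q = 0.248, the authors' deposited table), and Hist1h4j 0.812 and 0.623 FPKM (q = 0.303). Hist1h4b had 0.507 and 0.679 FPKM (q = 0.533), Hist1h4d 0.332 and 0.507 FPKM (q = 0.0907), and Hist1h4a 0.262 and 0.470 FPKM (q = 0.275). Hist1h4f had 0.406 and 0.356 FPKM (q = 0.831), and Hist1h4c 0.294 and 0.356 FPKM (q = 0.612). Of these 7, 4 were higher in hypoxia and 3 lower.

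**Figure D2:**
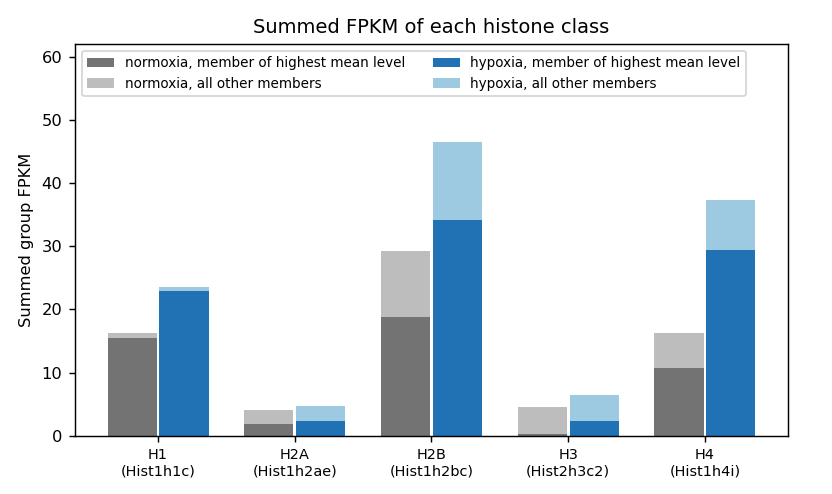
Summed group FPKM of each histone class on a linear axis from 0, in normoxia (grey) and hypoxia (blue), with the member of the highest mean level (named under the class) as the dark lower segment and all other members as the light upper segment. The H4 sum goes from 16.2 to 37.4 FPKM with Hist1h4i as most of it, while H2A and H3 stay under 7 FPKM in both groups.

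By position, the members fell into 4 named clusters. The Hist1 cluster on chromosome 13 has 54 members, in a pair of stretches plus Hist1h2al, which lies apart and was listed at 0. The stretch with Hist1h4i, Hist1h4k and Hist1h4n holds 24 members. Of its 12 tested genes those 3, all of H4, were called (25.0%). Its sum was 19.0 FPKM in normoxia and 40.2 in hypoxia. The stretch with Hist1h1c and Hist1h2bc holds 29 members. Of its 20 tested genes those 2 rose and Hist1h2bh fell (15.0% called). Its sum was 45.5 FPKM in normoxia and 68.9 in hypoxia. The Hist2 cluster on chromosome 3 has 8 members, with Hist2h3c2 up and Hist2h2be down among 3 tested. The Hist3 cluster on chromosome 11 has 2 members, of which Hist3h2ba was tested and rose. Hist4h4, alone on chromosome 6, was not tested and had 0.0472 FPKM in normoxia and 0.0152 in hypoxia. Over all tested members 25.0% were called, and over all tested measurements 57.9%. These counts are therefore not read as traits of a position.

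The members were also grouped by where their annotated transcript ends. In 19 members the model ran more than 100 bases past the stem-loop, in 22 it ended nearer, and 24 had no stem-loop motif in the model, 11 of which hold the coding sequence alone. The members that ran past summed to 35.2 FPKM in normoxia and 66.0 in hypoxia, and their highest values were 15.4 FPKM (Hist1h1c) and 29.3 FPKM (Hist1h4i). The members that ended near the stem-loop summed to 8.72 and 9.27 FPKM, and none exceeded 1.33 FPKM in either group. The typical member differed little. The median was 0.294 FPKM in normoxia and 0.356 in hypoxia for those that ran past, and 0.271 and 0.318 FPKM for those that ended near. A level of 1 FPKM in either group was reached by 5 of 19 and 4 of 22 members, so the gap between the sums came from a few genes, Hist1h4i and Hist1h1c above all. Of 12 tested members that ran past, Hist1h4i, Hist1h1c, Hist3h2ba and Hist2h3c2 rose and Hist1h2bh fell (41.7% called). Of 13 tested members that ended near, Hist1h4n rose (7.69%). Of all tested measurements 57.9% were called, 62.9% at a mean of at least 1 FPKM and 33.3% under it. Among the 13, only Hist1h3g and Hist1h3c had a mean of at least 1 FPKM. Among the 12, Hist1h4i, Hist1h1c, Hist3h2ba, Hist2h3c2 and Hist1h2ae did. Level thus differed along with the model, and the gap in the share called is not read as an effect of where the model ends. These models were annotated on other samples, so the deposited values do not show where the transcripts of these cells ended.

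Within the 19 members that ran past the stem-loop, those with a hexamer near the end had the higher sum and median, but not each a higher level. The 9 members with one, Hist1h4i, Hist1h1c, Hist3h2ba and Hist1h2ae among them, summed to 32.5 FPKM in normoxia and 61.0 in hypoxia. Hist4h4, Hist1h1t and Hist2h4 also carry a hexamer, and none of these exceeded 0.137 FPKM in either group. The 10 without a hexamer, Hist2h3c2 and Hist1h2bh among them, summed to 2.65 and 5.01 FPKM. The medians in normoxia and hypoxia were 0.812 and 0.623 FPKM with a hexamer and 0.266 and 0.279 FPKM without. The ratio of the sums was 1.88 with a hexamer and 1.89 without. A long model did not by itself go with a high level. Hist1h1d, with 4884 bases after its stem-loop, had 0.0395 FPKM in normoxia and 0.0552 in hypoxia. Hist4h4 has 2445 such bases and a hexamer. In Hist1h2bc and Hist2h2be, both without a stem-loop in the model, the level cannot be read against its position.

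**Figure D3:**
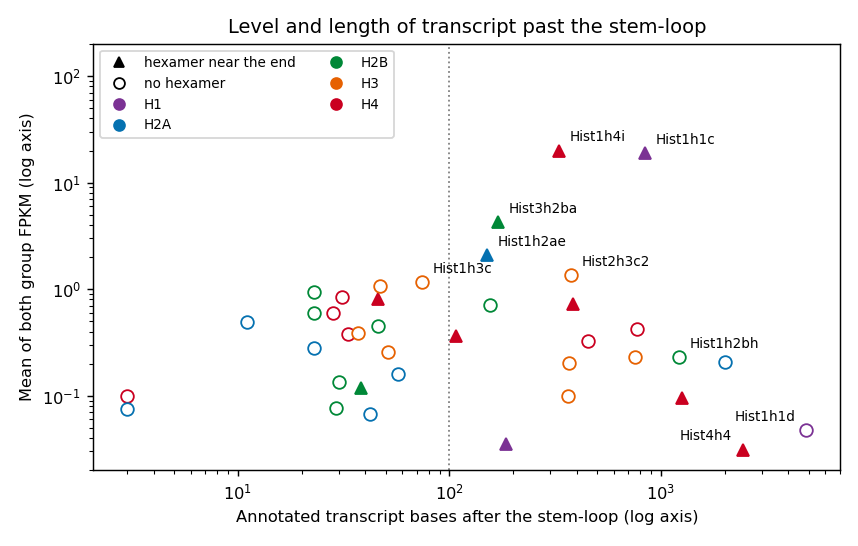
Mean FPKM of both groups against the annotated transcript bases after the stem-loop, both on log axes, for the 39 members with a stem-loop and a value above 0. Triangles have a hexamer in the last 50 bases, open circles do not, colours are classes and the dotted line marks 100 bases. The 4 highest members lie right of that line and carry a hexamer, and members left of it stay under 1.33 FPKM. Hist4h4 and Hist1h1t, the lowest plotted, also lie right of the line and carry a hexamer.

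Copies of a class are alike in sequence, so reads may have been divided among them. The sources used here do not say how the authors' counting treated reads with several matches. Each member's longest transcript was cut into 50-base windows. At least 50% of the windows were found in another gene for 32 members, of which 16 were tested, 3 rose and none fell. Those 3 were Hist1h4n (85.6% of windows), Hist1h4k (71.5%) and Hist2h3c2 (63.5%), and their values are uncertain for that reason. Of the 20 tested members under 50%, 4 rose and 2 fell. Hist2h2be shared no window, Hist1h1c shared 8.54%, Hist1h2bh 17.9%, Hist3h2ba 22.1%, Hist1h4i 28.9% and Hist1h2bc 30.1%.

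Some clustered histone names appear in the table only within joint measurements that carry several gene names, and these are not members. Hist2h2aa1 with Hist2h3c1, an H2A and an H3 gene, had 0.900 FPKM in normoxia and 5.26 in hypoxia and rose 5.84-fold (q = 0.000139 in the authors' deposited table). Gm20634, the third identifier of this joint measurement, is the gene with which Hist2h3c2 shares the most windows. Hist1h1e with Hist1h2be had 0.626 and 0.688 FPKM (q = 0.595). Hist3h2a with Trim17, a gene outside the histones, had 8.96 and 4.16 FPKM and fell 2.16-fold (q = 0.000139), and the share of Hist3h2a in it cannot be told apart.

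The sequence upstream of the start was compared for 57 members matched to RefSeq promoters of GRCm38.p6, each 250 bases before to 50 after the start. The plus-strand letters TATAAA were in 28 of these windows (49.1%), against 8.32% of all 32851 windows. CCAAT on either strand was in 48 (84.2%, against 37.4%), and ATTTGCAT on either strand, the octamer that OCT1 binds in H2B promoters, in 12 (21.1%, against 1.74%). The letters ACGTG and GCGTG on either strand, the core of the sites that hypoxia-inducible factors bind, were in 13 (22.8%, against 19.6%) and 15 (26.3%, against 32.4%). These motifs can overlap one another, and a match is a description of letters only. Windows of neighbouring members on opposite strands can also overlap, as those of Hist1h2ag and Hist1h2bj do. A match on either strand then counts for both members, so the shares of members are not from independent windows. Of the 7 members that rose, Hist1h4n and Hist2h3c2 had ACGTG, and Hist1h4k and Hist2h3c2 had GCGTG. Hist1h4i, Hist1h1c and Hist3h2ba had neither in their windows. Hist1h2bc and Hist2h2be were not among the matched windows. The 250 bases before the start of Hist2h3c2, chr3:96239128-96239377 on the minus strand, are shown for the widest ratio among called members, with 2 copies of ACGTG in capitals.
Hist2h3c2 promoter: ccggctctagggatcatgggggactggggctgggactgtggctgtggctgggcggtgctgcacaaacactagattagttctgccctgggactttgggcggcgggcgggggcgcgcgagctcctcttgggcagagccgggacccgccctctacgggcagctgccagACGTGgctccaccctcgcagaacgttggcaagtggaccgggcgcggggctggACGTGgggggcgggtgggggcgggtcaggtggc

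Hist1h4i and Hist1h4n, 2 of the H4 genes that rose, had a run of 38 identical bases just before the start, beginning at position -59 in both. They are shown for this run, in capitals, at chr13:22041363-22041612 and chr13:21832198-21832447, both on the minus strand.
Hist1h4i promoter: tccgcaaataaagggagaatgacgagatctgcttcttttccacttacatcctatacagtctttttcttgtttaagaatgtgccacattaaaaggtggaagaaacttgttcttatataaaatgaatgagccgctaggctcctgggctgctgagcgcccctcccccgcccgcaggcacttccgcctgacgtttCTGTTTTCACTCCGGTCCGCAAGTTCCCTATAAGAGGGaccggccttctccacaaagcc
Hist1h4n promoter: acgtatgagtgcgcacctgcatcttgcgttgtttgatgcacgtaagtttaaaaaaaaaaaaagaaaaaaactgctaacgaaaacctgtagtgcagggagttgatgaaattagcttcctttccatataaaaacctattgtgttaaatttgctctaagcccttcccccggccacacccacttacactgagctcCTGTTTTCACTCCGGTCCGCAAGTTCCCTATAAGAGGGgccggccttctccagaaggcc
Of all 32851 windows, 3 hold this run, those of Hist1h4i, Hist1h4n and Hist1h4m. Hist1h4m was not tested, and it shares a run of 249 bases with Hist1h4n. Among the 66 pairs of 12 H4 promoters the median longest shared run was 8 bases. The third H4 gene that rose, Hist1h4k, shared at most 10 bases with Hist1h4i, and 72 with Hist1h4j, which was not called. This pair was chosen after its values were seen.

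Histone variants outside the clusters were measured at higher levels, and more of them fell than rose. Of 11 tested, 6 fell, 1 rose and 4 were not called. That is 63.6% called, beside 57.9% of all tested measurements (28.9% up and 29% down). Every variant had a mean above 1 FPKM, and over the whole series 62.9% were called at such levels (32.1% up and 30.9% down). The share called was thus close to that of the series, and only the direction differed. The excess of falls among these 11 genes was not tested. H2afx, the variant phosphorylated at DNA breaks, had 139 FPKM in normoxia and 60.8 in hypoxia and fell 2.29-fold (q = 0.000139 in the authors' deposited table). H2afz, the H2A.Z found at promoters, fell from 556 to 343 FPKM (q = 0.000139). The macroH2A genes H2afy and H2afy2, known from silent chromatin, both fell, H2afy from 82.1 to 66.9 FPKM (q = 0.00947) and H2afy2 from 25.0 to 17.0 FPKM (q = 0.000139). Both genes of the replication-independent H3.3 fell, H3f3a from 321 to 258 FPKM (q = 0.00317) and H3f3b from 500.1 to 416 FPKM (q = 0.0169). Cenpa, the centromeric H3, rose from 210.5 to 262 FPKM (q = 0.0170).

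The variants that were not called included both linker histones. H1f0 had 446 FPKM in normoxia and 398 in hypoxia (q = 0.140, the authors' deposited table), and H1fx 28.1 and 26.3 FPKM (q = 0.828). H2afv had 154.9 and 164.8 FPKM (q = 0.514), and H2afj 25.9 and 21.3 FPKM (q = 0.0632). By class, the 6 H2A variants summed to 984 and 673 FPKM, beside 4.03 and 4.70 FPKM for the clustered H2A genes. The 3 H3 variants summed to 1031 and 936 FPKM, beside 4.59 and 6.48 FPKM for clustered H3. The 2 H1 variants summed to 474 and 425 FPKM, beside 16.3 and 23.6 FPKM. The ratio, hypoxia over normoxia, was thus below 1 for the variants of each class (0.685, 0.907 and 0.896) and above 1 for the clustered genes of the same class. For H1 and H3 the clustered side rested on Hist1h1c and Hist2h3c2. For H2A the clustered ratio was 1.16, and none of the 5 tested members was called. The summed FPKM of the whole series was also higher in hypoxia, 639357 against 547351 in normoxia, so the H2A ratio is not read as a rise. The difference between variants and clustered genes was not tested.

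**Figure D4:**
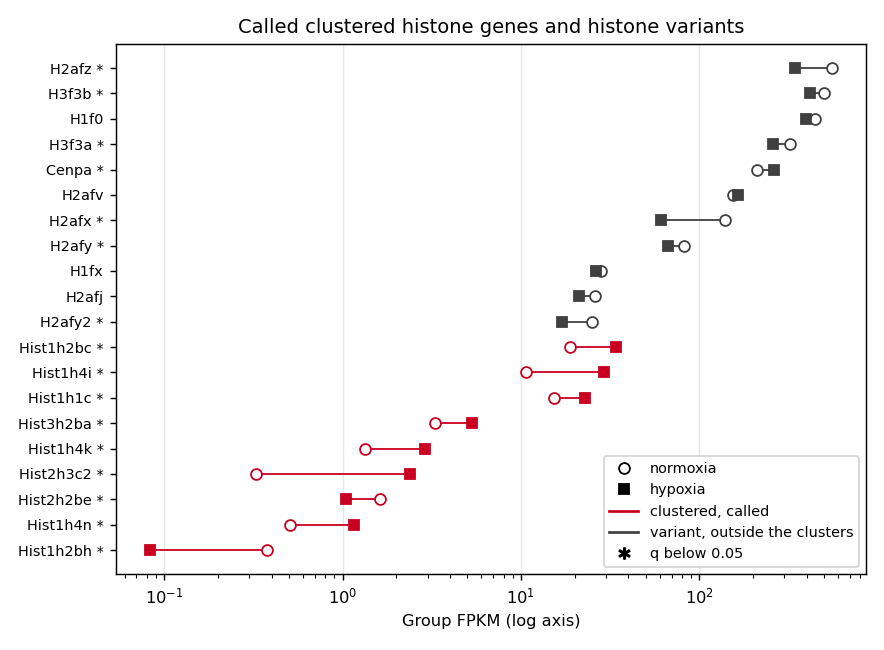
Group FPKM on a log axis of the 11 histone variants outside the clusters (dark lines) and the 9 called clustered histone genes (red lines), with normoxia as open circles, hypoxia as filled squares and asterisks for a deposited q below 0.05. Most variants lie above 25 FPKM. In hypoxia 9 of the 11 are lower, 6 of them called. Of the clustered genes only the 9 called are plotted, 7 of them higher. Over all 36 tested clustered genes, 22 were higher and 14 lower.

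Genes that act on histone mRNA went in both directions. Of 20 tested, 4 rose, 8 fell and 8 were not called (60.0% called, beside 57.9% of all tested measurements). Slbp, the stem-loop binding protein, had 88.7 FPKM in normoxia and 109.1 in hypoxia (q = 0.0931, the authors' deposited table). Npat, the coactivator of clustered histone gene transcription, rose from 8.93 to 15.6 FPKM (q = 0.000139). Lsm11, a protein of the U7 particle, rose from 3.57 to 6.28 FPKM (q = 0.000139), and Sympk, a scaffold that histone cleavage shares with polyadenylation, from 52.2 to 99.4 FPKM (q = 0.000139). Mblac1, a nuclease of histone pre-mRNA processing, fell from 1.82 to 0.209 FPKM, and Cstf2t, a cleavage stimulation factor, from 17.0 to 7.86 FPKM (q = 0.000139 for both). The cap-binding Ncbp1 fell from 48.8 to 29.4 FPKM, and its partner Ncbp2 from 33.9 to 16.8 FPKM (q = 0.000139 for both).

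Of 20 tested genes of polyadenylation, on which capture in these libraries depends, 11 rose, 6 fell and 3 were not called. Cpsf1, Cpsf2, Cpsf3, Cstf2 and Sympk are also in the list of histone mRNA genes above, so their values count in both lists. That is 85.0% called, beside 57.9% of all tested measurements. The median difference of the 20 genes was 0.31 on the log2(FPKM + 1) scale. Pcf11 rose from 11.1 to 22.1 FPKM, Wdr33 from 24.6 to 45.5 FPKM and Cstf1 from 22.6 to 41.4 FPKM (q = 0.000139 for each in the authors' deposited table). Cstf3 fell from 25.2 to 13.1 FPKM and Clp1 from 12.4 to 6.77 FPKM (q = 0.000139 for both). The part of these shifts in the clustered histone values was not tested.

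Histone chaperones, which carry histones to and from DNA, were called in 16 of 21 tested cases (76.2%), 9 up and 7 down. The share over all tested measurements was 57.9%. Hjurp, the chaperone of Cenpa, rose from 112 to 312 FPKM (q = 0.000139 in the authors' deposited table). Mms22l, which acts with newly made H4 at forks, rose from 22.0 to 42.5 FPKM, and Chaf1a, a subunit of the replication-coupled assembly factor CAF-1, from 65.3 to 101.6 FPKM. Npm1, nucleophosmin, rose from 742 to 1160 FPKM. Set fell from 289 to 157 FPKM and Nasp, which binds H3 with H4 and H1, from 136 to 81.5 FPKM.

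More cell cycle genes rose than fell, and their values are given because clustered histone mRNA is made in S phase. Of 39 tested genes of G1/S and replication, 21 rose, 7 fell and 11 were not called. That is 71.8% called, beside 57.9% of all tested measurements (28.9% up and 29% down). The median difference of the 39 genes was 0.28 on the log2(FPKM + 1) scale. Pcna, the replication clamp, rose from 299 to 355 FPKM (q = 0.0179 in the authors' deposited table). E2f1, a transcription factor of S phase entry, rose from 24.4 to 68.3 FPKM, E2f7 from 12.1 to 21.8 FPKM, and the replication initiation genes Cdc6 from 23.5 to 45.9 FPKM and Cdc45 from 41.1 to 75.9 FPKM. Ccne1, the cyclin whose kinase acts on Npat, fell from 12.3 to 3.50 FPKM, and Tyms, thymidylate synthase, from 129.6 to 76.1 FPKM. Of 22 tested genes of G2 and mitosis, 14 rose and none fell (63.6% called, beside the same 57.9%), with a median difference of 0.42. Among these, Aurkb rose from 81.8 to 196 FPKM, Bub1 from 36.8 to 79.0 FPKM, Mki67 from 71.4 to 145 FPKM and Ttk from 14.5 to 29.2 FPKM. In bulk samples, more cells in a phase and more RNA per cell cannot be told apart. The part of the cell cycle in the clustered histone values was not tested.

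**Figure D5:**
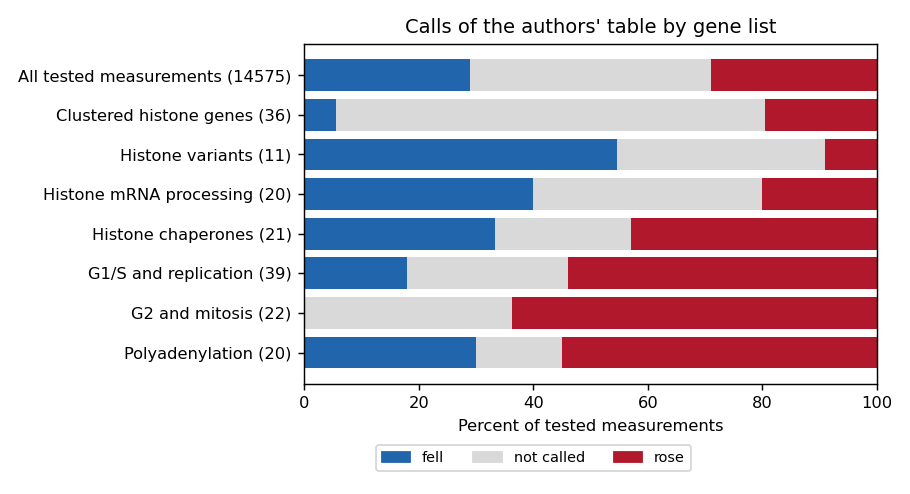
Percent of tested measurements that fell (blue), were not called (grey) or rose (red) by the authors' deposited q below 0.05, for all 14575 tested measurements, the 36 tested clustered histone genes and 6 gene lists, with the number tested in brackets. Clustered histone genes have the largest grey share of those plotted, 27 of 36. The lists are not separate, as Slbp, Sympk and some other genes stand in several.

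As a check of the labels, all 11 listed targets of hypoxia-inducible factors rose, among them Adm from 0.669 to 36.4 FPKM, Ndrg1 from 72.8 to 930.5 FPKM, Ankrd37 from 12.7 to 159 FPKM and Car9 from 5.20 to 43.5 FPKM (q = 0.000139 for each in the authors' deposited table). Of 11 fibroblast markers 10 were tested, 2 rose and 5 fell, beside 28.9% up and 29% down of all tested measurements. Vim rose from 883 to 2249 FPKM and Fn1 from 448 to 649 FPKM, and Col3a1 fell from 328 to 182 FPKM, Col1a2 from 140.1 to 91.7 FPKM, Pdgfrb from 10.9 to 6.58 FPKM and Thy1 from 8.65 to 5.72 FPKM. Of 15 markers of other cell types, 8 were under 0.1 FPKM in both groups, with Adgre1, Myod1 and Pou5f1 listed at 0 in both and Ptprc, Pecam1 and Cdh5 near 0. Others were measured and not called: the epithelial Epcam had 5.97 and 5.22 FPKM, and the pluripotency genes Sox2 and Nanog had 2.18 and 2.38 FPKM and 1.33 and 1.23 FPKM. The summed level of the 15 was 358 and 468 FPKM, mostly Krt18, which rose from 313 to 443 FPKM. Of the others called, Cd68 rose from 1.32 to 2.27 FPKM, and Krt8 fell from 28.3 to 10.1 FPKM and Cdh1 from 5.93 to 3.76 FPKM. Their part in the clustered histone values was not tested.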

How the data were processed

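Per the submitters' processing notes, the genome build was GRCm38 and the tools were Cuffdiff 2.2.1, Cufflinks, HISAT2 2.1.0 and StringTie 1.3.4d. The authors deposited 1 gene table with 1 FPKM per gene and group. Per the file headers, it also has a log2 fold change, a test statistic (a score that was not used), a p-value and a q-value. The sources used here do not say how libraries were scaled or whether counting used strand. The smallest deposited p-value is 5e-05.

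The 53207 rows gave 51482 measurements after rows repeating 1 measurement were counted once, of which 14575 were tested. With 1 value per group no test was run here, and calls are the deposited q-value below 0.05, adjusted over all tested measurements. Folds, class sums, sequence searches and shares were computed with Python 3.11.15, pandas 2.3.3 and NumPy 2.4.6, and the counting of calls was tested on simulated data. All 65 members were in GENCODE M21, 58 with the table's coordinates. Sequences are from GENCODE M21 transcripts and RefSeq promoters.

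The members and gene lists were chosen with earlier results of these data known. Genes named were every tested member, any untested member with at least 1 FPKM in either group (there was none), the highest member of each class, up to 4 called genes of the largest change in the majority direction and up to 2 in the other direction from each list, all listed variants, and Slbp, Npat, H2afx and Pcna. Other members named as examples, the other marker genes, the joint measurements and the promoter pairs were picked with their values in view. The alternatives tried were a q of 0.01, a 2-fold threshold, a filter of 1 FPKM, a pseudocount of 0.1, rescaling by the median of ratios, tested members alone, sums without the highest member and joint measurements. Members with few shared windows were added after seeing the data.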

Additional observations from a re-analysis of the deposited data

How the results depend on the processing

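No paired analysis was possible because the deposited columns hold 1 value per group, so leaving out single samples was not run either. Of 69 alternative values, 30 stayed within the limits set for them, 37 moved and 2 reversed. Of the clustered histone genes, 5 rose at q below 0.01 and 8 with joint measurements. At least 2-fold, 4 rose and 1 fell. Where the mean reached 1 FPKM, 6 rose and 1 fell. Among members with under 50% of windows shared, 4 rose, an alternative added after seeing the data. The median log2 difference of 0.083 was 0.20 with a pseudocount of 0.1, 0.056 over members above 0 in both groups and 0.087 after rescaling by the median of ratios (0.991). The ratio of the sum over all members was 1.70 for tested members, 1.64 without Hist1h2bc and 1.70 after rescaling. Without the highest member the H1 ratio turned from 1.45 to 0.843 and the H3 ratio from 1.41 to 0.958, by the removal of Hist1h1c and Hist2h3c2, while H2A was 1.13, H2B 1.18 and H4 1.45. With tested members alone H1 was 1.46 and H2A 1.24. Rescaled, H1 was 1.46, H2A 1.17, H2B 1.60, H3 1.42 and H4 2.32. At least 2-fold, 0 variants rose and 1 fell, 0 histone mRNA processing genes rose and 3 fell, 1 chaperone rose and 0 fell, 1 G1/S gene rose and 1 fell, 4 G2 and mitosis genes rose, 0 polyadenylation genes rose and 0 fell, 1 fibroblast marker rose and 0 fell, and 0 markers of other types rose and 1 fell. At q below 0.01, 0 variants rose and 3 fibroblast markers fell. The depth is unknown, and 25 of the 36 tested members have a mean under 1 FPKM.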
